A study of Mus musculus with 12 samples.

Results

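Among the 22322 gene symbols measured in mouse liver, 64 belonged to the organic anion transporting polypeptides (Slco), the Slc22 transporters of organic ions, or the Abcb, Abcc and Abcg subfamilies of ATP-binding cassette (ABC) transporters. They were taken by symbol alone, and the bile salt and sterol exporters Abcb11, Abcg5 and Abcg8 were left out. Each symbol was represented by its transcript with the highest mean over the 12 libraries. Values are RPKM, reads scaled to transcript length and to sequencing depth. Levels can be compared between genes, with the limit that the transcript used was sometimes a short one.

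The livers came from C57BL/6 mice of 8 weeks in 4 groups of 3 libraries each. Wild type (WT) mice carried 2 floxed copies of Bmal1, with loxP sites around exon 8. Knockout (KO) mice carried the same floxed copies and a CRE recombinase under a liver-specific promoter, which removes that exon in the liver only. No CRE is given for the WT mice, so an effect of CRE itself cannot be told apart from the loss of Bmal1. After 12 h light and 12 h dark cycles, mice of both genotypes spent 2 days in darkness, and livers were taken at circadian time 0 h (CT0) or 12 h (CT12). The titles number 3 libraries a group, and the methods describe 3 mice of each genotype, while the treatment protocol of the labels speaks of 2 mice and of ZT rather than CT. P-values measure the spread between these libraries.

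Hepatocytes take up bile acids, hormones, drugs and toxins from the blood through Slco and Slc22 proteins on the sinusoidal membrane. Abcc2, Abcb1a, Abcb4 and Abcg2 face the bile canaliculus and pump conjugates, lipophilic drugs and phospholipid into bile, while Abcc3 and Abcc4 return conjugates to the blood. BMAL1, with its partner CLOCK, binds E-boxes and drives the circadian clock, and clock output factors such as DBP bind D-boxes in genes for hepatic drug handling. Several Abcb members instead sit in mitochondria or other organelles and serve heme and iron metabolism.

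The depth recovered from the RPKM steps was 11470000 to 19020000 reads a library. Arntl, the gene for BMAL1, had 15.7 to 16.4 RPKM in WT at CT0 and 0.68 to 1.26 RPKM in WT at CT12, against 5.73 to 7.45 RPKM and 3.59 to 4.37 RPKM in KO. Such transcript totals cannot tell if exon 8 was still there. Of the hepatocyte markers, all 7 were abundant. Kidney tubule markers, which matter because many Slc22 genes are best known from kidney, summed to at most 0.0302 RPKM in any library, with 2 of 4 at 0 in all 12.

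Levels spanned a wide range. Of the 64 genes, 34 reached a mean of 1 RPKM in at least 1 group and were tested, 30 did not, and 11 of those 30 were listed at 0 in all 12 libraries. Slco1b2, an importer of unconjugated bile acids, bilirubin and drugs, was highest with a mean of 411 RPKM over the 12 libraries. Other abundant members were Slco1a1 (132 RPKM), Abcc2 (93.4 RPKM), Slco1a4 (78.5 RPKM), Abcc3 (77.9 RPKM) and Abcb4 (71 RPKM). The library values of Slco1b2, 317 to 500 RPKM, lay above every value of the other members. The ranges of Slco1a1 (86.2 to 189 RPKM) and Abcc2 (66.9 to 122 RPKM) overlapped, as did those of Slco1a4, Abcc3 and Abcb4, so their order is not set beyond their spread. Levels also depend on the row used. Slco1a4 is given by a row of 622 bases with group means of 45.28 to 114.3 RPKM. Its row of 3586 bases had group means of 32.77 to 85.45 RPKM.

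**Figure D1:**
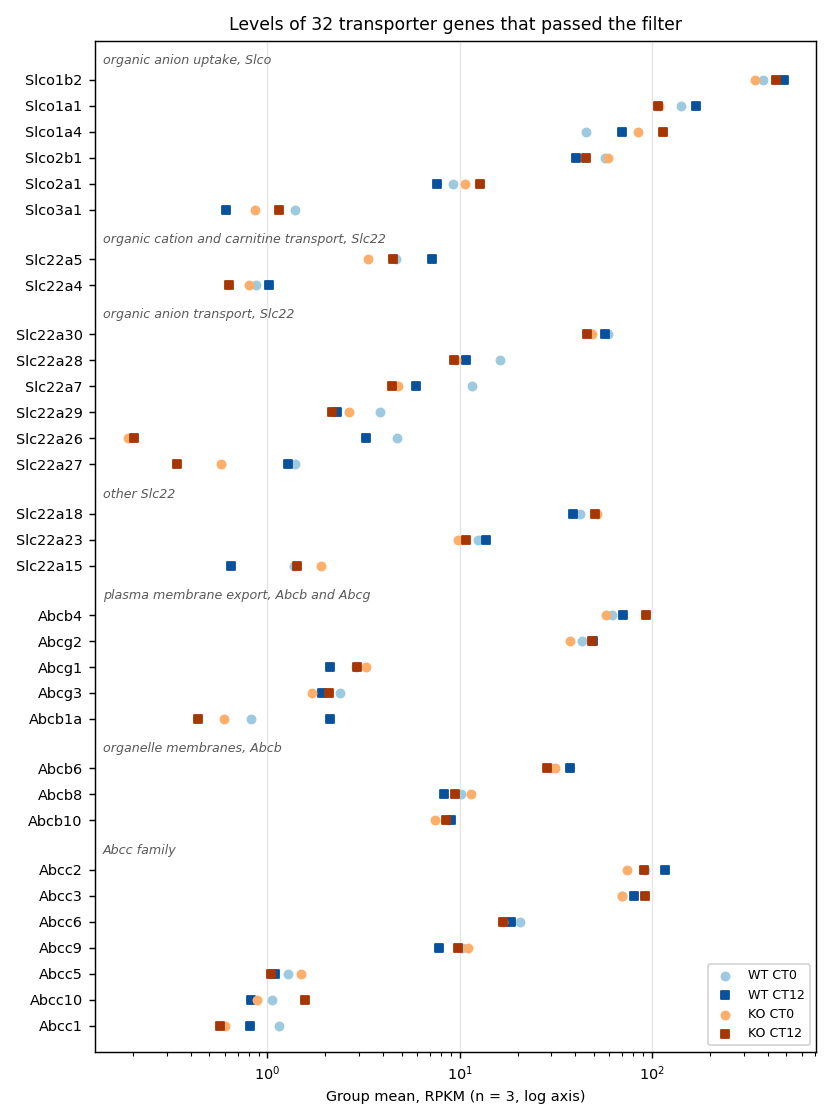
Mean RPKM of 32 of the 34 tested transporter genes in each of the 4 groups (n = 3 libraries each) on a log axis, ordered by role and then by mean. Slco1b2 lies highest in all groups, and Slc22a26 lies at 0.189 and 0.203 RPKM in KO against 4.73 and 3.27 RPKM in WT.

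The first question was which transporter genes differed between KO and WT. Over CT0 and CT12 together, 3 of the 34 genes tested were higher in KO and 6 were lower (limma on log2(RPKM + 1), Benjamini-Hochberg adjusted p under 0.05 over 10799 genes). Slco1a4, Slc22a15 and Slc22a18 were higher, and Slc22a26, Slc22a7, Abcb1a, Slco1a1, Abcc2 and Slc22a23 were lower. This is 8.82% higher and 17.6% lower, where 7.44% of all tested genes were higher and 4.03% were lower. The median difference was -0.13 on the log2 scale over the 34 genes and 0.04 over all tested genes, with 21 of the 34 below 0. Because a gene could pass the filter through the group in which it was high, these shares describe the tested genes only.

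At CT0, 1 tested transporter gene was higher in KO (2.94%) and 2 were lower (5.88%), where 1.02% and 0.843% of all tested genes were. At CT12, 3 were higher (8.82%) and 5 were lower (14.7%), where 6.97% and 3.49% of all tested genes were. The medians were -0.16 at CT0 and -0.04 at CT12, against 0.01 and 0.08 over all tested genes. At an unadjusted p under 0.05 there were 10 genes at CT0 and 14 at CT12. The share of all tested genes at that level was not computed, so these counts have nothing to be set against. In bulk tissue, fewer cells of a type and less RNA per cell cannot be told apart. The summed hepatocyte markers were lower in KO (31000 to 37000 RPKM at CT0 and 28100 to 32100 RPKM at CT12) than in WT (47600 to 53900 RPKM and 39200 to 47800 RPKM), through Alb, which was the 1 marker of 7 called lower averaged over both times (-0.99, limma adjusted p = 3.64e-05). Of all tested genes, 4.03% were called lower averaged over both times. Fgb, another of the 7 markers, was called higher in KO at CT12 (0.88, limma adjusted p = 0.0102). At CT0 Alb alone was called. Without passing, Cps1 had 0.37 and Ttr 0.05 there, while Apoa1 had -0.30, Serpina1a -0.26, Fgb -0.25 and Tat -0.10. The summed cholangiocyte markers were higher in KO (88.4 to 152 RPKM) than in WT (27.2 to 64.8 RPKM) through Spp1, while Krt7, Krt19, Epcam and Sox9 each averaged under 1 RPKM. The summed acinar markers were also higher in KO (13.9 to 21.6 RPKM against 3.65 to 11 RPKM) through Cela1, which rose by 1.29 averaged over both times (limma adjusted p = 0.000181), while Cpa1 and Pnlip were at 0. Summed erythroid markers at CT12 were 207 to 258 RPKM in KO and 95.2 to 169 RPKM in WT. There 1 of 4 was called higher, Hbb-b2, where 6.97% of all tested genes were. Averaged over both times 1 of 4 was called lower, Alas2, where 4.03% of all tested genes were. The part of these shifts in the results below was not tested.

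**Figure D2:**
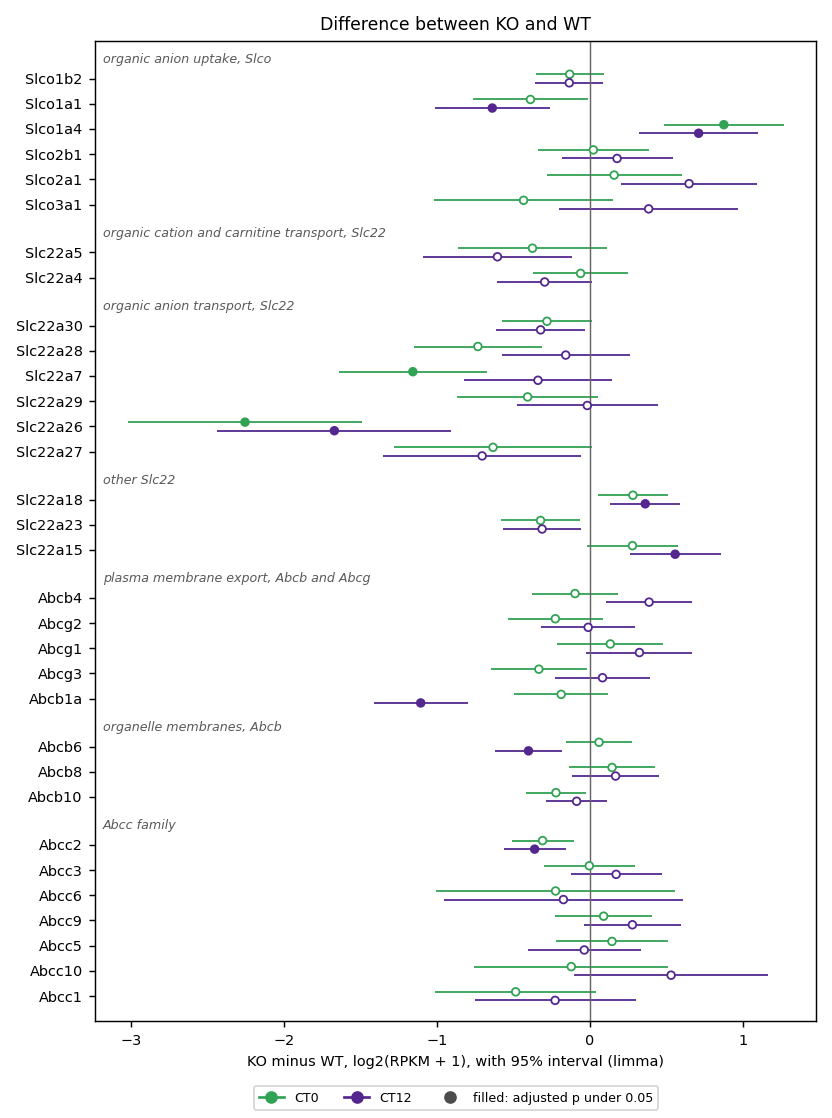
Difference between KO and WT on the log2(RPKM + 1) scale with its 95% interval (limma) for 32 of the 34 tested genes, at CT0 in green and at CT12 in purple, with filled points for an adjusted p under 0.05. Slco1a4 lies to the right at both times, Slc22a26 lies far to the left at both times, and Abcb1a lies at -0.19 at CT0 and -1.10 at CT12.

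Slco genes code for uptake carriers, and 6 of 15 were tested. Averaged over both times, 2 neighbouring genes passed the test in opposite directions, where 7.44% of all tested genes were higher and 4.03% were lower. Slco1a4, whose protein Oatp1a4 imports cardiac glycosides and other amphipathic compounds, had 43.7, 49.1 and 43 RPKM in WT at CT0 and 73.9, 75.5 and 106 RPKM in KO. In the CT12 libraries the values were 83.4, 69.2 and 55.7 RPKM in WT and 125, 90.1 and 128 RPKM in KO. Every KO library was above every WT library of the same time. The rise in KO was 0.88 (standard error 0.18, limma adjusted p = 0.0319) at CT0, 0.71 (standard error 0.18, adjusted p = 0.0252) at CT12 and 0.79 (standard error 0.13, adjusted p = 0.0016) averaged over both. The averaged call held under all 18 alternatives run for it, whereas the CT0 call ended without WT CT0 replicate 1, 2 or 3 or KO CT0 replicate 3 (adjusted p = 0.0851 to 0.112). The CT12 call ended without WT CT12 replicate 2 or 3 or KO CT12 replicate 1 or 3 (adjusted p = 0.0616 to 0.105). All 3 of its transcript rows were higher in KO, by 0.88 to 0.96 at CT0.

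Slco1a1, an importer of sulfated steroids and bile acids, had 132, 163 and 129 RPKM in WT and 86.2, 134 and 106 RPKM in KO at CT0, where the groups overlapped. At CT12 it had 189, 178 and 138 RPKM in WT and 95.8, 125 and 102 RPKM in KO, with no overlap. It fell by 0.51 in KO averaged over both times (standard error 0.12, limma adjusted p = 0.0173) and by 0.64 at CT12 (standard error 0.17, adjusted p = 0.0355). That CT12 call did not survive the omission of WT CT12 replicate 1 or 2 or KO CT12 replicate 1 or 3 (adjusted p = 0.102 to 0.117). Slco1a1 shares 2.6% of its 50-base words with other genes, mostly with Slco1a4, and the row used for Slco1a4 shares none.

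The promoter windows of this pair and of Slc22a26, the gene with the largest difference, are printed because they show what letters known for clock factors lie at genes that moved in opposite directions. Each runs from 250 bases before to 50 bases after the RefSeq start site on GRCm38.p6, reads 5′ to 3′ on the gene's strand, and has any match in capitals. The windows are chr6:141946913-141947212 for Slco1a1, chr6:141856171-141856470 for Slco1a4 and chr19:7802618-7802917 for Slc22a26, all on the minus strand.
Slco1a1: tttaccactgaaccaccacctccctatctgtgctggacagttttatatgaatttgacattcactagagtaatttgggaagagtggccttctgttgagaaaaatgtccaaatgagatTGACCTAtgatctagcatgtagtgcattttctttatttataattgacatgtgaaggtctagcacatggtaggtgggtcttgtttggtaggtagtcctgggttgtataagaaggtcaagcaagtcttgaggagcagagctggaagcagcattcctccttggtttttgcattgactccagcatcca
Slco1a4: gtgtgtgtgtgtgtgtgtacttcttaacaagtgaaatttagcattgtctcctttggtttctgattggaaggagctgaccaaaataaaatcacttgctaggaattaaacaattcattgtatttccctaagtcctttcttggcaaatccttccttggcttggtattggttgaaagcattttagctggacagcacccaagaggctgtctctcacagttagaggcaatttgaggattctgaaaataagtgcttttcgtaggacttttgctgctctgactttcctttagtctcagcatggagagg
Slc22a26: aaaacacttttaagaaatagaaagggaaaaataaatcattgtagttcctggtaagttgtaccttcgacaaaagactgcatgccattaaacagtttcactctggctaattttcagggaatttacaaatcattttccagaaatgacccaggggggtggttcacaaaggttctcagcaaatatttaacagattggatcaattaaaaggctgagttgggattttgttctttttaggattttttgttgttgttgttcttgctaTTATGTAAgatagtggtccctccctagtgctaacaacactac

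Searched on both strands were the E-box CACGTG, the D-box TTATGTAA and the core of the ROR element TAGGTCA, which do not overlap one another. Slco1a1 held a ROR core 134 bases before its start site on the opposite strand, Slc22a26 held a D-box beginning 8 bases after it, and Slco1a4 held none of the 3. Over all 32851 windows, 7.15% held the E-box, 0.938% the D-box and 2.61% the ROR core. Counted by gene, as the members are below, the shares over 27025 genes were 8.09%, 1.11% and 2.97%. Of the 50 members with a window, 4 held an E-box (Abcc4, Slc22a16, Slc22a4 and Slco1c1), 2 a D-box (Slc22a20 and Slc22a26) and 1 a ROR core. Of the 4 members with an E-box, 3 did not pass the filter and Slc22a4 had no call for genotype. A match describes letters in a window and not a bound site.

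The other tested Slco genes had no call for genotype. Slco1b2 had 348, 392 and 390 RPKM in WT and 317, 393 and 326 RPKM in KO at CT0, and 500, 458 and 492 RPKM in WT and 400, 453 and 471 RPKM in KO at CT12. These values overlapped, and the difference was -0.13 at both times (95% interval -0.35 to 0.09 at CT0 and -0.36 to 0.09 at CT12). Slco2b1, another sinusoidal importer, had 60.9, 50.1 and 60.1 RPKM in WT and 77, 55.8 and 44.8 RPKM in KO at CT0. The CT12 values were 46.1, 38.8 and 35.9 RPKM in WT and 48.3, 45.5 and 42.8 RPKM in KO. It averaged 0.10 (95% interval -0.15 to 0.36). For Slco2a1, the prostaglandin transporter, the difference at CT12 was 0.65 (standard error 0.20, limma adjusted p = 0.0639), and Slco3a1 was near 1 RPKM.

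Slc22 genes for organic anion transport numbered 14, of which 6 were tested. All 6 had a negative averaged difference, a sign whose share over all tested genes was not computed. Of the 6, 2 were called lower averaged over both times, where 4.03% of all tested genes were. Slc22a26, a member of a rodent cluster of such genes, had 6.57, 4.14 and 3.48 RPKM in WT and 0.0334, 0.49 and 0.0435 RPKM in KO at CT0. At CT12 it had 2.1, 1.39 and 6.32 RPKM in WT and 0.173, 0 and 0.438 RPKM in KO. No KO library reached the lowest WT library, although the WT values at CT12 were uneven. It fell by 2.25 at CT0 (standard error 0.35, limma adjusted p = 0.00776) and by 1.67 at CT12 (standard error 0.35, adjusted p = 0.00975). The averaged difference was -1.96 (standard error 0.25, limma adjusted p = 0.000318). With a pseudocount of 0.1 in place of 1 the averaged difference was -3.94, because the log2(RPKM + 1) scale understates changes at low values. Its KO values rest on 0 to 14 reads a library and its WT values on 41 to 249. All 3 calls held under every alternative run, from 17 to 18 for each, and both of its transcript rows were lower in KO at each time. Slc22a26 passed the filter only through the WT groups, in which it was high.

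Slc22a26 lies on chromosome 19 in a row with Slc22a19, Slc22a27, Slc22a28, Slc22a29 and Slc22a30, between bases 7747551 and 8479601 of NCBIM37. Slc22a19 was listed at 0 in all 12 libraries. The other neighbours averaged -0.67 for Slc22a27 (adjusted p = 0.0625), -0.44 for Slc22a28 (adjusted p = 0.0554), -0.21 for Slc22a29 (adjusted p = 0.426) and -0.30 for Slc22a30 (limma adjusted p = 0.0636), so none of them passed. Slc22a30 was the most abundant of the row with a mean of 52.6 RPKM, and Slc22a27 the least among those tested with 0.893 RPKM. Slc22a27 also passed the filter only through the WT groups. Their transcripts resemble one another. Slc22a28 shares 53.9% of its 50-base words with other genes, Slc22a30 47.9%, Slc22a27 30.6% and Slc22a29 30.5%, so the values of these 4 are uncertain where the counting split reads between them. Slc22a26 shares none.

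Slc22a7, which codes for the organic anion transporter OAT2 of the sinusoidal membrane, had 13.1, 8.8 and 12.8 RPKM in WT and 5.85, 5.7 and 2.74 RPKM in KO at CT0. In the CT12 libraries the values were 5.68, 7.02 and 5.05 RPKM in WT and 3.94, 4.78 and 4.63 RPKM in KO. The genotypes did not overlap at either time, but the distance was small at CT12. It fell by 1.16 in KO at CT0 (standard error 0.22, limma adjusted p = 0.023) and by 0.75 averaged over both times (standard error 0.16, adjusted p = 0.00891), and the difference at CT12 was -0.34 (adjusted p = 0.386). Its CT0 call did not survive the omission of WT CT0 replicate 1 or 3 (adjusted p = 0.0749 and 0.0895), when fitted on the 6 CT0 libraries alone (0.0983) and without the filter (0.0593). Its transcript shares no 50-base word with another gene.

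Slc22 genes for organic cations and carnitine, of which 3 of 7 were tested, had no call. Slc22a5, the carnitine importer, had 3.58, 5.68 and 4.79 RPKM in WT and 3.22, 3 and 3.82 RPKM in KO at CT0, and 6.44, 5.92 and 9.18 RPKM in WT and 2.9, 4.19 and 6.38 RPKM in KO at CT12. It averaged -0.49 (standard error 0.16, limma adjusted p = 0.0689), and it shares 27.1% of its words with other genes, mostly with Slc22a21. Slc22a4, the ergothioneine transporter, averaged -0.18 (adjusted p = 0.31) at a mean of 0.832 RPKM.

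All 3 tested genes among the 5 other Slc22 members passed the averaged test, Slc22a18 and Slc22a15 as higher in KO and Slc22a23 as lower. Over all tested genes, 7.44% were called higher and 4.03% lower. Slc22a18, an imprinted gene whose substrate is not well established, had 42.3, 41.7 and 42.5 RPKM in WT and 52.1, 47.7 and 54.9 RPKM in KO at CT0, and 43.3, 35.8 and 38 RPKM in WT and 44.9, 58.2 and 48.8 RPKM in KO at CT12. It was higher in every KO library and rose by an average of 0.32 (standard error 0.07, limma adjusted p = 0.0146). The call at CT12, 0.36 with adjusted p = 0.0478, was lost under 14 of 19 alternatives. Among these were the omissions of WT CT0 replicate 1, 2 or 3, WT CT12 replicate 2 or 3, KO CT0 replicate 1, 2 or 3 or KO CT12 replicate 2 or 3 (adjusted p = 0.0517 to 0.168).

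Slc22a15 had 1.12, 1.36 and 1.67 RPKM in WT and 2.16, 1.42 and 2.13 RPKM in KO at CT0, which overlapped. The CT12 values were 0.542, 0.647 and 0.753 RPKM in WT and 1.29, 1.62 and 1.38 RPKM in KO, which did not. It rose by 0.42 averaged over both times (standard error 0.10, limma adjusted p = 0.0141) and by 0.56 at CT12 (standard error 0.14, adjusted p = 0.0218). The CT12 call ended without WT CT12 replicate 1 or 2 or KO CT12 replicate 2 or 3 (adjusted p = 0.0521 to 0.0801) and with quantile normalization (0.0599). Slc22a23 had 12.3, 12.9 and 12.4 RPKM in WT and 9.88, 10.8 and 8.84 RPKM in KO at CT0, and 12.1, 16.3 and 12.8 RPKM in WT and 11.4, 11.5 and 9.58 RPKM in KO at CT12. Every KO library was below every WT library of the same time, and it fell by 0.32 averaged over both (standard error 0.08, adjusted p = 0.0282). That call was lost without WT CT0 replicate 2 or 3, WT CT12 replicate 2 or KO replicate 3 of either time (adjusted p = 0.0531 to 0.0692).

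**Figure D3:**
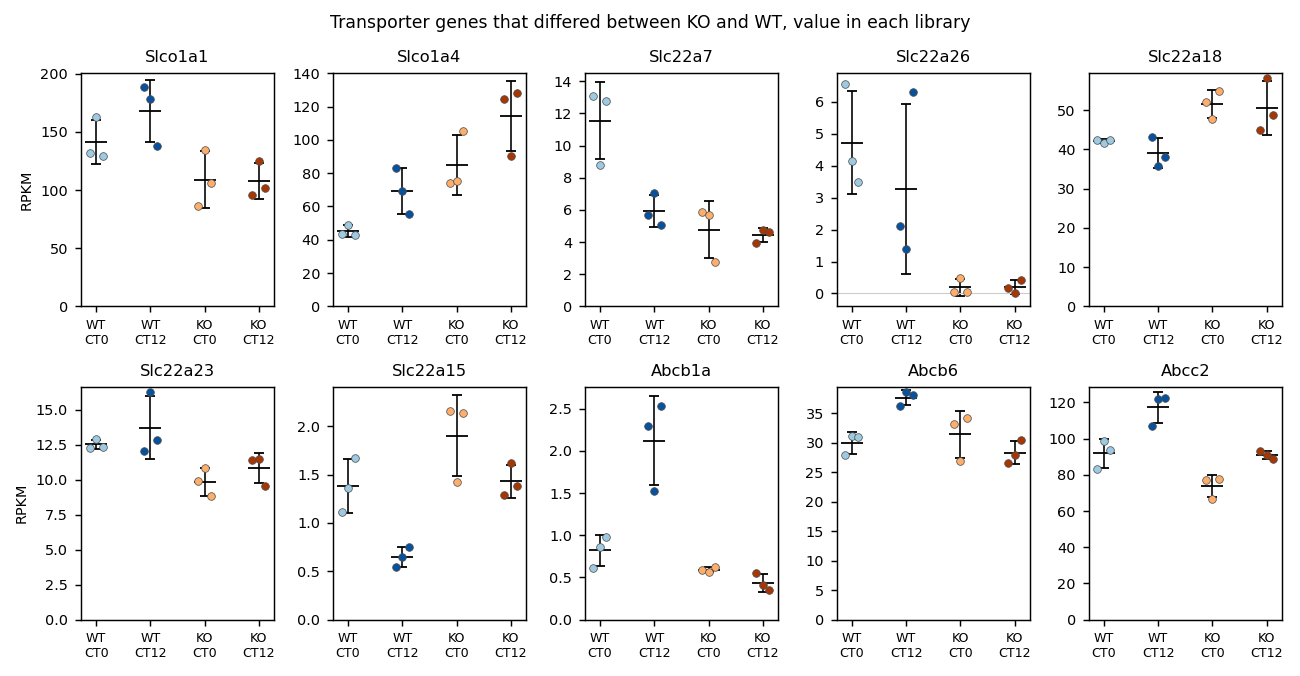
RPKM in each of the 12 libraries for the 10 genes that differed between KO and WT averaged over both times, at CT0 or at CT12. Points are libraries, and bars give the mean and SD of 3 libraries. Slc22a26 lies at or below 0.49 RPKM in all 6 KO libraries and at or above 1.39 RPKM in all 6 WT libraries, and Abcb1a is highest in WT at CT12.

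Exporters of the plasma membrane numbered 8 in the Abcb and Abcg subfamilies, and 5 were tested. Abcb1a, one of the mouse genes for the drug pump P-glycoprotein, had 0.614, 0.863 and 0.983 RPKM in WT and 0.591, 0.562 and 0.628 RPKM in KO at CT0. At CT12 it had 2.3, 1.53 and 2.54 RPKM in WT and 0.555, 0.408 and 0.351 RPKM in KO. The genotypes overlapped at CT0 and lay far apart at CT12. It fell by 1.10 in KO at CT12 (standard error 0.14, limma adjusted p = 0.000357) and by 0.65 averaged over both times (standard error 0.10, adjusted p = 0.0013), while the difference at CT0 was -0.19 (95% interval -0.49 to 0.12). The calls at CT12 and averaged held under all alternatives run, 18 and 17 of them. Abcb1a passed the filter only through WT at CT12, and it had 112 to 185 reads a library there and 24 to 44 in KO. It shares 17% of its words with other genes, mostly with Abcb1b, which had 0.28 to 0.878 RPKM in WT and 0.0618 to 0.435 RPKM in KO and did not pass the filter.

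Abcb4, which moves phosphatidylcholine into bile and lies beside Abcb1a and Abcb1b on chromosome 5, had 54.7, 65 and 66.6 RPKM in WT and 55.4, 62.7 and 55.7 RPKM in KO at CT0. In the CT12 libraries the values were 66.9, 71.7 and 72.6 RPKM in WT and 73.8, 99.8 and 107 RPKM in KO. The CT12 groups did not overlap, but the difference of 0.39 did not pass (standard error 0.13, limma adjusted p = 0.0817). Abcg2, the breast cancer resistance protein that exports urate and drugs, had 40.2, 44.3 and 45.5 RPKM in WT and 45.4, 29.7 and 37.2 RPKM in KO at CT0, and 54.7, 49.3 and 43.4 RPKM in WT and 44.6, 47.4 and 54.4 RPKM in KO at CT12. The groups overlapped at both times, and it averaged -0.12 (95% interval -0.34 to 0.10). Abcg1, a cholesterol exporter, and Abcg3 were at 1.21 to 3.79 RPKM with no call for genotype.

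Of the 5 organelle Abcb genes, 4 were tested and 1 was called lower in KO at CT12, where 3.49% of all tested genes were. Abcb6, a porphyrin transporter, had 36.2, 38.6 and 38 RPKM in WT and 26.5, 28 and 30.4 RPKM in KO at CT12. At CT0 it had 27.9, 31.1 and 30.9 RPKM in WT and 33.2, 26.8 and 34.2 RPKM in KO, which overlapped. It fell by 0.40 in KO at CT12 (standard error 0.10, limma adjusted p = 0.0244), and its difference at CT0 was 0.06 (95% interval -0.16 to 0.28). The call was lost without WT CT12 replicate 2 or 3 or KO CT12 replicate 1 or 2 (adjusted p = 0.0722 to 0.0779). Its row is a short transcript of 416 bases, and the longer row gave -0.38 at CT12 and -0.10 at CT0. The mitochondrial Abcb8 and Abcb10 averaged 0.16 and -0.15 without passing.

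Abcc genes numbered 10, and 7 were tested. Abcc2, whose protein MRP2 exports bilirubin glucuronide and other conjugates into bile, had 83.1, 98.4 and 93.7 RPKM in WT and 77.4, 66.9 and 77.5 RPKM in KO at CT0. At CT12 it had 107, 122 and 122 RPKM in WT and 93.3, 91 and 88.5 RPKM in KO. KO was below WT without overlap at both times. It fell by 0.33 averaged over both (standard error 0.07, limma adjusted p = 0.00635) and by 0.36 at CT12 (standard error 0.09, adjusted p = 0.0285), and the difference at CT0 was -0.31 (adjusted p = 0.134). The averaged call held under all 18 alternatives. Its CT12 call ended without WT CT12 replicate 2 or 3 or KO CT12 replicate 1, 2 or 3 (adjusted p = 0.0542 to 0.106).

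Abcc3, which exports conjugates across the sinusoidal membrane, had 56.4, 78.9 and 74 RPKM in WT and 58.9, 71.7 and 77.6 RPKM in KO at CT0, and 84.1, 74.3 and 84.6 RPKM in WT and 82.5, 93.9 and 98.2 RPKM in KO at CT12. The groups overlapped at both times, and the averaged difference was 0.09 (95% interval -0.13 to 0.30). Abcc6, whose loss causes ectopic calcification, was uneven within groups, with 11.7, 32.8 and 17.1 RPKM in WT and 10, 22.7 and 17.7 RPKM in KO at CT0, and 20.1, 15.2 and 20.5 RPKM in WT and 10.8, 20.8 and 18.8 RPKM in KO at CT12. Its averaged difference was -0.20 with a 95% interval of -0.75 to 0.35. Abcc4, the sinusoidal conjugate exporter, stayed below the filter at 0.343 to 0.893 RPKM and was not tested. Abcc9, a subunit of potassium channels, had 7.42 to 13 RPKM, and Abcc1, Abcc5 and Abcc10 were near 1 RPKM. None of these 4 passed for genotype.

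The second question was whether transporter levels differed between the 2 times. In WT, 3 of the 34 tested genes were higher at CT12 (8.82%) and 2 were lower (5.88%), where 3.71% and 7.88% of all tested genes were. Abcb1a rose by 0.77 (standard error 0.14, limma adjusted p = 0.00515), and this call held under all 18 alternatives run for it. It passed the filter only through WT at CT12, the higher group of this comparison. Abcc2 rose by 0.35 (standard error 0.09, adjusted p = 0.0317) and Slco1b2 by 0.36 (standard error 0.10, adjusted p = 0.0414), while Slc22a7 fell by 0.85 (standard error 0.22, adjusted p = 0.0295) and Slc22a15 by 0.53 (standard error 0.14, adjusted p = 0.0284). The median over the 34 genes was -0.11, against -0.07 over all tested genes. In each of the 5 genes the CT12 libraries did not overlap those of CT0.

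The last 4 of these calls lay near the threshold, and each was lost when 1 of several libraries was left out. Their estimates kept their sign under every alternative. Abcc2 lost its call without WT CT0 replicate 1 or 3 or WT CT12 replicate 2 or 3 (adjusted p = 0.0722 to 0.111). Slco1b2 lost it without any 1 of the 6 WT libraries, KO CT0 replicate 3 or KO CT12 replicate 2 (adjusted p = 0.0518 to 0.132), and with quantile normalization (0.134). Slc22a7 lost it without WT CT0 replicate 1 or 3 or WT CT12 replicate 1 or 3 (adjusted p = 0.0808 to 0.103). Slc22a15 lost it without WT CT0 replicate 2 or 3 or any WT CT12 library (adjusted p = 0.0538 to 0.104) and with quantile normalization (0.107). Summed markers of endothelial, Kupffer and stellate cells were also lower at CT12 in WT, for stellate cells 103 to 118 RPKM against 138 to 180 RPKM at CT0. Of the tested markers, 1 of 5, 1 of 6 and 2 of 5 were called lower, where 7.88% of all tested genes were. The part of these cell types in the time differences was not tested.

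In KO, 1 of the 34 genes was higher at CT12 (2.94%) and 0 were lower, where 1.10% and 1.32% of all tested genes were. The count at an unadjusted p under 0.05 was 6, without a matching share over all tested genes. The called gene was Abcb4, which rose by 0.67 (standard error 0.13, limma adjusted p = 0.0243), and each of its KO libraries at CT12 exceeded each at CT0. It was not called in WT (0.18, adjusted p = 0.402), and the interaction that compares these 2 changes was 0.48 (adjusted p = 0.285). The KO call was lost without KO CT0 replicate 1 or 3 or KO CT12 replicate 2 or 3 (adjusted p = 0.0604 to 0.0828) and in a fit of the 6 KO libraries alone (0.106). Slco1b2 had a change in KO of 0.36, the same size as in WT, with adjusted p = 0.0895. Abcc2 had 0.30 (adjusted p = 0.108), and Slc22a7 had -0.03 (95% interval -0.51 to 0.45).

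**Figure D4:**
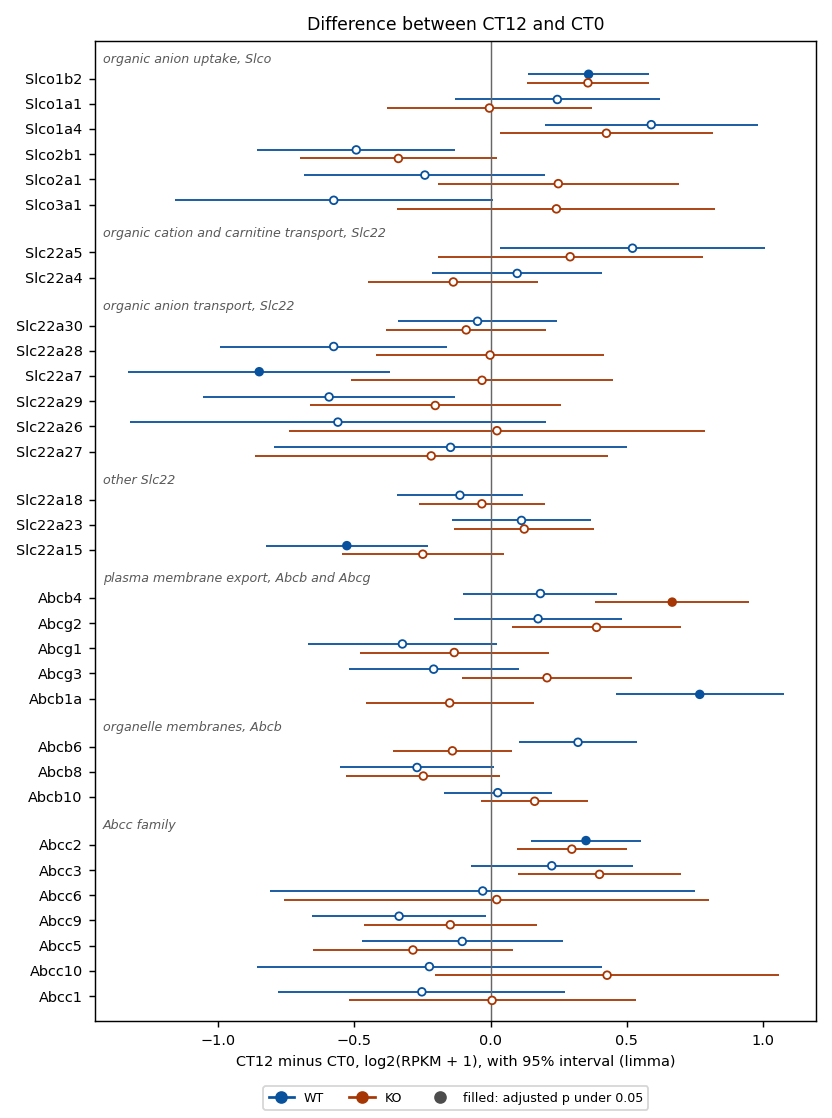
Difference between CT12 and CT0 on the log2(RPKM + 1) scale with its 95% interval (limma) for 32 of the 34 tested genes, in WT in blue and in KO in brown, with filled points for an adjusted p under 0.05. Abcb1a lies at 0.77 in WT and -0.15 in KO, Slco1b2 lies at 0.36 in both, and Abcb4 lies at 0.18 in WT and 0.67 in KO.

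Whether the time difference depended on genotype was tested by the interaction, KO change minus WT change. It was called for 1 of the 34 genes with a negative sign (2.94%) and for 0 with a positive sign. Over all tested genes these shares were 0.417% and 1.07%. The count at an unadjusted p under 0.05 was 4, again without a matching share over all tested genes. The called gene was Abcb1a, with an interaction of -0.92 (standard error 0.20, limma adjusted p = 0.0459). This call was lost under 14 of its 17 alternatives, including the omission of any library other than WT CT12 replicate 2 (adjusted p = 0.0611 to 0.114). Slc22a7, which was lower in KO at CT0, had an interaction of 0.82 (standard error 0.31, adjusted p = 0.29), so its 2 genotype differences were not shown to differ. The same holds for Slco1a4 (-0.16, adjusted p = 0.854) and Slc22a26 (0.58, adjusted p = 0.697).

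Of the 64 members, 30 stayed below the filter. Slc22a6 and Slc22a8, the renal organic anion carriers, were listed at 0 in all 12 libraries, as were Slc22a13, Slc22a19, Slc22a20, Slc22a16, Slco6b1, Slco6c1, Slco6d1, Abcb5 and Abcc8. Slco1c1, which carries thyroid hormone into brain, had at most 0.087 RPKM, and Slco1a5 and Slco1a6, which lie beside Slco1a1, had at most 0.0587 RPKM. Slc22a3 was at 0.317 to 1.36 RPKM and Slc22a2, a renal cation carrier, at 0.131 to 0.515 RPKM. A value of 0 here says only that no read was listed.

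Transport genes outside these families were taken from a list of 19, of which 15 were tested. Averaged over both times, 2 were higher in KO and 3 were lower, where 7.44% and 4.03% of all tested genes were. Slc47a1, which codes for the cation exporter MATE1 of the canaliculus, fell by 1.62 (standard error 0.15, limma adjusted p = 3.11e-05). Slc10a2, a sodium-dependent bile acid importer, fell by 1.59 (standard error 0.30, adjusted p = 0.00477), with 13.96 RPKM in KO CT0 replicate 1 against 2.20 to 5.48 RPKM in the other KO libraries. The folate carrier Slc19a1 fell by 0.57 (adjusted p = 0.0495). The dicarboxylate carrier Slc13a3 rose by 0.91 (adjusted p = 0.000181) and the lactate carrier Slc16a1 by 0.70 (adjusted p = 0.000438). For Slc16a1 the CT0 difference of 0.17 was not called (limma adjusted p = 0.61), and the CT12 difference of 1.22 was (adjusted p = 9.56e-05). Its interaction of 1.05 (limma adjusted p = 0.016) was the 1 called in this list. Over all tested genes, 1.07% had a positive interaction call and 0.417% a negative one. Slc10a1, the main sodium-dependent importer of bile acids in hepatocytes, was not called.

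Of 16 transcription factors and partners known to act on transporter genes, all were tested, and 3 were lower in KO averaged over both times, where 4.03% of all tested genes were. Nr1i3, the xenobiotic receptor CAR, fell by 0.76 (standard error 0.14, limma adjusted p = 0.00479), Ppara by 0.83 (standard error 0.08, adjusted p = 6.29e-05) and Dbp by 0.80 (standard error 0.19, adjusted p = 0.0161). Dbp, the D-box factor, was not called at CT0 (0.40, adjusted p = 0.548), whereas its CT12 difference was -2.00 (adjusted p = 0.000487). Tef, of the same family, averaged 0.00, being higher in KO at CT0 (0.94, adjusted p = 0.000938) and lower at CT12 (-0.94, limma adjusted p = 0.000152). At CT0 the repressor gene Nfil3 differed by -0.66 (adjusted p = 0.047). The xenobiotic receptor Nr1i2 (PXR) was not called for genotype. In WT, 7 of the 16 were higher at CT12 and 1 was lower, Nfil3 (-1.09, adjusted p = 0.000707), where 3.71% and 7.88% of all tested genes were. In KO, 1 was higher, where 1.10% of all tested genes were. This was Dbp, which rose by 1.19 (adjusted p = 0.0416). The interaction was called with a negative sign for Dbp (-2.41, limma adjusted p = 0.00775) and Tef (-1.89, adjusted p = 0.000135), where 0.417% of all tested genes were.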

How the data were processed

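Liver RNA was sequenced in 12 libraries, grouped and numbered by their titles. The authors deposited RPKM values for 46585 Ensembl transcripts in each library. The submitters' processing notes name TopHat2, bedtools 2.19.1 and mm9. The annotation release, and how reads shared between transcripts were counted, are not given in the sources used here. TruSeq v2 libraries do not mark strand. No exon of the 34 rows tested overlapped another gene in GENCODE vM1. For each of 22322 symbols the transcript with the highest mean was kept, sometimes a short one (405 bases for Slco2b1, 622 for Slco1a4). Of the 64 members, 33 had several rows.

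The 10799 genes that averaged 1 RPKM or more in some group were tested as log2(RPKM + 1), which understates the fold change of low genes, by limma 3.58.1 in R 4.3.3 (4 group means, eBayes with trend, Benjamini-Hochberg adjustment, threshold 0.05). The script was tested on simulated data. Depth was recovered from RPKM steps, since 95.3% to 96.2% of low values lay within 0.05 of whole reads. No pair of replicates was near identical (Pearson's r 0.979 to 0.989 across genes). Promoters are RefSeq windows on GRCm38.p6, and gene positions are from NCBIM37, which is mm9. The members and lists were chosen with earlier results of these data known. Members were named if called in any contrast or if listed as textbook liver transporters. Values of 2 tested members are not reported here, although the counts include them. Python 3.11.15, pandas 2.3.3 and matplotlib 3.10.9 were used.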

Additional observations from a re-analysis of the deposited data

Results flagged for a closer look

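The interaction of genotype and time for Abcb1a was -0.92 on the log2(RPKM + 1) scale (standard error 0.20, limma adjusted p = 0.0459). It was noted because the estimated difference between KO and WT was -0.19 at CT0 and -1.10 at CT12. Abcb1a passed the filter only through WT at CT12, a group that enters the interaction. The call was lost under 14 of its 17 alternatives, so a dependence on time is not established. All 3 WT libraries were higher at CT12 than at CT0, and all 3 KO libraries were lower. The adjusted p under the alternatives that ended the call was 0.0527 to 0.114. With 3 libraries a group, no test for a single outlying library was made.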

How the results depend on the processing

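Counts of transporter genes called are given with the main count in parentheses. Without the filter there was 1 at CT0 (3), 5 at CT12 (8), 3 for time in WT (5) and 0 for the interaction (1). With 1 RPKM required in every library there were 5 at CT12 and 0 for the interaction. That filter removed Abcb1a, Slc22a15 and Slc22a26, which lay under 1 RPKM in some library, so these genes were not tested under it. The interaction count was also 0 with a pseudocount of 0.1. Fits of only the 6 libraries compared gave 8 for time in WT and 0 for time in KO (1). Leaving out 1 library at a time gave 8 to 11 averaged over both times (9), 1 to 3 at CT0, 2 to 8 at CT12 (2 without WT CT12 replicate 2), 1 to 7 for time in WT (1 without WT CT0 replicate 3), 0 to 2 for time in KO and 0 to 1 for the interaction. Apart from the genes removed by that filter, the cause of these changes was not tested, although fewer libraries or another number of genes tested are part of their construction.

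Replicate numbers are shared by the groups, but libraries with the same number did not deviate together (correlation -0.07 to 0.14, mean 0.0082, against -0.0041 for different numbers), so they share only a number. With the replicate block there were 12 called genes averaged over both times (9), 2 at CT0, 9 at CT12, 6 for time in WT, 1 for time in KO and 0 for the interaction.

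Beside the omissions given with each gene, calls were lost for Slco1a4 at CT0 without the filter (adjusted p = 0.0734) and with the block (0.0536), at CT12 without the filter for Slco1a4 (0.0513) and Slco1a1 (0.0694), for Slc22a18 at CT12 without the filter (0.0643), with quantile normalization (0.0789), with the block (0.0812) and with 6 libraries (0.113), and for time in WT without the filter for Slc22a7 (0.0592) and Slco1b2 (0.0643) and with 6 libraries for Abcc2 (0.056).

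Uncalled differences near 0 changed sign. The mean over all transcript rows gave -0.0062 for Abcb6 at CT0 and 0.0187 for Abcg2 at CT12, and quantile normalization gave -0.0048 for Slco2b1 at CT0. Leaving out 1 library gave -0.0016 to 0.1671 for Abcb6 at CT0, -0.1459 to 0.1100 for Abcc3 at CT0, -0.5427 to 0.1622 for Abcc6 at CT0 and -0.3417 to 0.1005 at CT12, -0.0940 to 0.0689 for Abcg2 at CT12, -0.3178 to 0.1191 for Slc22a7 with time in KO, and for Slco2b1 -0.0004 to 0.1917 averaged and -0.1800 to 0.2044 at CT0. Of the values for named genes under all alternatives, 1228 kept direction and side of the threshold, 98 lost and 19 gained a call, and 19 changed sign.

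At 11470000 to 19020000 reads a library, the members below the filter, and Abcb1a and Slc22a26 in KO, rest on few reads.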
